A study of Mus musculus with 14 samples.

Results

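RNA bound to Flag-tagged Dppa5a in untreated mouse embryonic stem cells was compared with RNA recovered by control IgG, using 4 of the 14 libraries of the series. The members were taken from the labels: 2 libraries of RNA immunoprecipitated with a Flag antibody (Flag libraries) and 2 with IgG (IgG libraries). Both groups came from untreated stem cells of a home-made line carrying the genotype 3Flag-Dppa5a overexpression, so the control cells hold the tagged protein too. Beside them stand 2 libraries of the same genotype and Flag antibody from cells given a treatment labelled HU (HU Flag libraries), which the labels do not spell out. Total RNA-seq of 2 wild type mESC, 2 wild type fibroblast (MEF), 2 wild type knockdown control and 2 Dppa5a knockdown stem cell libraries, all untreated, served as independent reference. The design text names the purpose of the immunoprecipitation as finding the RNAs that Dppa5a targets. The stem cells were kept on fibroblast feeders with LIF and passaged on gelatin before harvest. The labels do not give the promoter that drives the tagged gene or whether the line is 1 clone, and no library of input RNA from the tagged cells was analysed here.

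Dppa5a is a small protein of pluripotent cells and the early embryo with a KH domain, a fold that binds single-stranded RNA. In RNA immunoprecipitation (RIP) an antibody pulls down a protein with the RNA attached to it, and the RNA is sequenced. RNA sticks to beads and antibodies without any bait, so recovery is read against an antibody with no target in the cell. A RIP yields relative amounts: a transcript gains share when other transcripts lose it, and the absolute amount of RNA recovered is not in the counts.

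The libraries held 3472020 and 3703236 counts with IgG, 13033886 and 9469168 with Flag, and 9641507 and 7378729 with Flag after HU. The stem cell gene Pou5f1, which encodes Oct4 and was picked to check the label, stood at 149 and 138 CPM with IgG and at 150 and 155 CPM with Flag, where CPM are counts scaled to a common library size by TMM, a scaling by the bulk of genes. Fibroblast collagen genes were near the floor in the 4 libraries: Col1a1 had no count in any of them. Replicates of a group correlated at 0.907 (IgG) and 0.919 (Flag) across genes on the log2 scale, and genes are not independent replicates. Separate cultures are not stated for the replicates, so each p-value reflects the spread of these libraries alone, which may be technical.

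The transcript of the bait was not among those recovered more with Flag. Dppa5a (chromosome 9, 78367052 to 78368199, GRCm38) was counted at 232 and 252 CPM with IgG, 170 and 160 CPM with Flag and 114 and 114 CPM with Flag after HU. The IgG libraries were both higher, and the log2 fold change of Flag over IgG was -0.55 ± 0.24 (SE, n = 2 and 2; adjusted p = 0.254 by the quasi-likelihood test of edgeR with Benjamini-Hochberg adjustment, used for all RIP p-values here). An mRNA level says nothing of how much tagged protein each antibody pulled down, and no measure of that was analysed here.

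Most of what was counted in each library came from 4 RNAs. Rn45s, the precursor of ribosomal RNA, took 47.9% and 39.3% of all gene counts with IgG, 72.6% and 73.2% with Flag and 69.4% and 66.9% with Flag after HU. Rmrp, the RNA of the ribonuclease MRP complex that processes ribosomal RNA (chromosome 4, 43492785 to 43493059), took 28.2% and 35.6% with IgG, 8.37% and 8.01% with Flag and 12.9% and 15.6% with Flag after HU. Both Flag libraries therefore lay above both IgG libraries for Rn45s and below them for Rmrp. Lars2, a mitochondrial leucyl-tRNA synthetase gene (chromosome 9, 123366927 to 123462675), took 3.22% and 2.05% with IgG against 7.37% and 6.93% with Flag. Relative to Rn45s, Lars2 had 6.72 and 5.21 counts per 100 counts of Rn45s with IgG and 10.2 and 9.46 with Flag. Whether ribosomal RNA reads add to the counts of Lars2 was not tested. Exact binomial intervals of these shares span at most 0.105 percentage points, but cover counting error only. An exact two-sided permutation test of 2 against 2 libraries cannot go below p = 0.333. On the scaled counts the log2 fold changes were 1.63 ± 0.10 for Rn45s (adjusted p = 4.27e-09), 2.32 ± 0.17 for Lars2 (adjusted p = 1.21e-07) and -1.06 ± 0.09 for Rmrp (adjusted p = 1.82e-06; SE, edgeR). Rpph1, the RNA of ribonuclease P, a complex related to that of Rmrp, was not called (log2 fold change -0.30 ± 0.19, adjusted p = 0.484, edgeR).

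**Figure D1:**
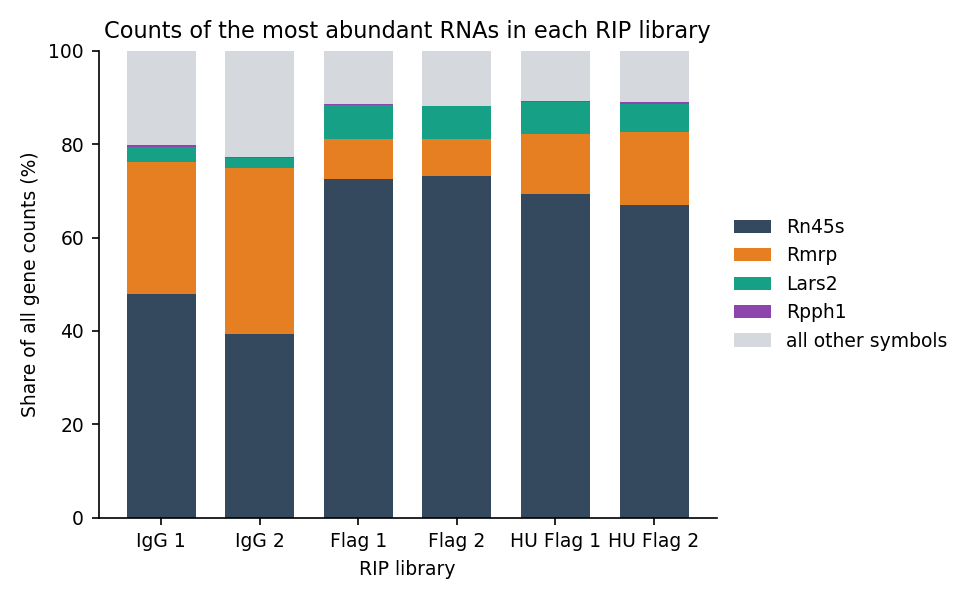
Share of all gene counts (%) taken by Rn45s, Rmrp, Lars2, Rpph1 and all other symbols in each of the 6 RIP libraries. Rn45s takes 72.6% and 73.2% in the Flag libraries and 47.9% and 39.3% in the IgG libraries, and Rmrp takes less with Flag than with IgG.

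Outside these 4 RNAs the libraries held 702016 and 841305 counts with IgG and 1492111 and 1112135 with Flag. Of 10473 gene symbols with enough counts, 121 (1.16%) were recovered more and 122 (1.16%) less with Flag than with IgG at an adjusted p under 0.05 (edgeR). The HU Flag libraries against the same IgG libraries gave 151 higher (1.44%) and 149 lower (1.42%) calls. In Flag against IgG an unadjusted p under 0.05 was reached by 1607 symbols, 862 of them higher with Flag. The smallest change called was 0.86 on the log2 scale, and the median of the called genes was 2.24 upward and -2.22 downward. Protein-coding genes made up 114 of the 121 and 119 of the 122. In none of the 243 called genes did the Flag and IgG libraries overlap; over all symbols tested, both Flag libraries lay above both IgG libraries in 23.8% and below them in 22.9%. Without IgG replicate 1 the count of called genes was 30, and without IgG replicate 2 it was 48, with the spread of the remaining IgG library taken from the other groups. Scaling by library size alone moved the median of all genes from 0.02 to -0.87 and gave 64 higher and 2214 lower calls (2.81% higher), so every direction below is relative to the bulk of the transcripts. In the text that follows, the calls of Slc29a1, Fbxo15, Slc2a3, Zscan4f, Hist1h3d, Srsf5, Lyz2, Rbm47, Zc3hav1, Reep6, Iqgap1, Sfmbt2 and Grhl2 were made under each of the 15 alternatives tried. Each other call named ended under at least 1 of them, except Rn45s and Lars2, which held in the 14 that tested them.

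**Figure D2:**
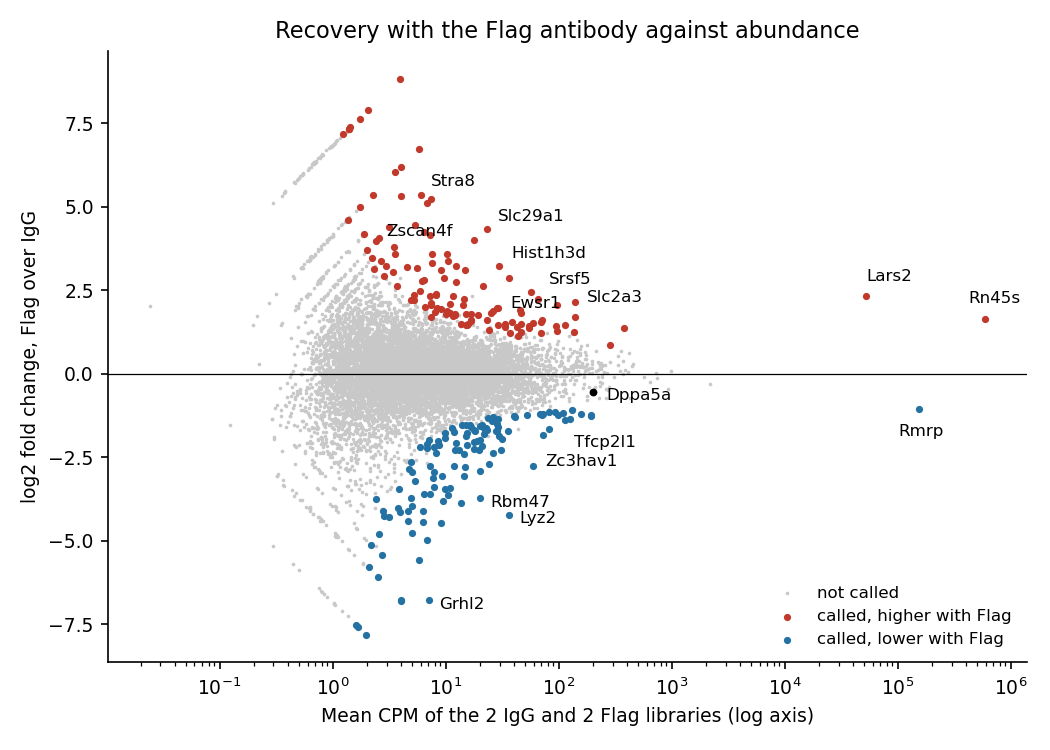
Log2 fold change of Flag over IgG against the mean CPM of the 4 libraries (log axis) for 10473 symbols, with the 121 genes called higher in red, the 122 called lower in blue and Dppa5a in black. Lines of points at the left are genes with no or few counts in 1 group, whose fitted fold change depends on the small count added in the fit.

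The mRNAs recovered more with Flag included 2 nutrient transporters and a gene of the pluripotent state. Slc29a1, a nucleoside transporter of the cell membrane, stood at 2.39 and 2.03 CPM with IgG, 50.4 and 38.2 CPM with Flag and 32.7 and 35.8 CPM with Flag after HU. Its log2 fold change was 4.32 ± 0.40 (SE, n = 2 and 2; adjusted p = 2.56e-06, edgeR). Fbxo15, an F-box gene known as a target of Oct4 and Sox2, stood at 10.8 and 6.77 CPM with IgG, 75.2 and 52.1 CPM with Flag and 37.5 and 53.04 CPM with Flag after HU (log2 fold change 2.87 ± 0.36, adjusted p = 0.00014, edgeR). Slc2a3, the glucose transporter GLUT3, stood at 57.1 and 44.5 CPM with IgG, 226 and 226 CPM with Flag and 177 and 153 CPM with Flag after HU (log2 fold change 2.15 ± 0.26, adjusted p = 0.00014, edgeR). For each of these 3 genes every Flag library, with or without HU, lay above both IgG libraries. Eef1a1, a translation elongation factor and among the most abundant mRNAs of the cells, had 5140 and 5773 FPKM (fragments per kilobase and sequencing depth) in mESC and 1038 and 892 CPM with IgG against 869 and 1169 CPM with Flag, groups that overlap. Its log2 fold change was 0.08 ± 0.21 (adjusted p = 0.915, edgeR), and -0.81 with library size alone.

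Among 30 genes of the core and naive pluripotency network, 29 were tested, 1 was recovered more (Fbxo15) and 1 less. The gene recovered less was Tfcp2l1, a transcription factor of the naive state, with 132 and 116 CPM with IgG, 41.2 and 37.6 CPM with Flag and 23.6 and 45.8 CPM with Flag after HU (log2 fold change -1.65 ± 0.32, adjusted p = 0.0078, edgeR). The median of the list was 0.19, beside 0.02 for all symbols tested.

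Replication-dependent histone genes had the largest number of members called higher with Flag among the lists examined. By share of members tested, the shorter two-cell-like list below was higher (6 of 13). These genes encode the core and linker histones made in S phase, and their mRNAs end in a stem-loop in place of a poly(A) tail. Among 68 such genes 57 were tested, and 20 were called higher and 0 lower, beside 1.16% of all symbols in each direction. All 57 had a log2 fold change above 0, with a median of 1.18. With library size alone the median was 0.26 and 6 were called. Hist1h3d, an H3 gene (chromosome 13, 23575763 to 23576266), stood at 5.97 and 5.59 CPM with IgG, 70.7 and 37.1 CPM with Flag and 13.2 and 12.97 CPM with Flag after HU. Its log2 fold change of Flag over IgG was 3.22 ± 0.39 (adjusted p = 0.00014, edgeR). Hist1h3e, another H3 gene, stood at 25.3 and 10.5 CPM with IgG, 110 and 82.4 CPM with Flag and 24.7 and 28.2 CPM with Flag after HU (log2 fold change 2.43 ± 0.37, adjusted p = 0.00115, edgeR). Hist1h2aa, an H2A gene known from the testis, had 0 counts in both IgG libraries and 111 and 41 counts with Flag, at least 30.3-fold higher against a floor of 3 counts over the IgG group.

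By family, 8 of 11 H4 genes, 5 of 10 H3 genes, 3 of 14 H2A genes, 3 of 16 H2B genes and 1 of 6 H1 genes were called. The 11 H4 genes summed to 503 and 355 CPM with IgG, 1514 and 801 CPM with Flag and 384 and 329 CPM with Flag after HU. The 6 H1 genes summed to 379 and 470 CPM with IgG, 1172 and 637 CPM with Flag and 212 and 182 CPM with Flag after HU. In 50 of the 57 genes both Flag libraries lay above both IgG libraries, beside 23.8% of all symbols. In 43 of the 57 both HU Flag libraries lay below both IgG libraries. The share of all symbols with HU Flag below IgG in this way was not computed. The first Flag library stood above the second in 55 of 57. Leaving out Flag replicate 1 left 5 histone calls, leaving out IgG replicate 1 or 2 left 4 and 3, and leaving out Flag replicate 2 gave 28. In the comparison of HU Flag with Flag, 48 of the 57 were called lower (beside 0.468% lower and 0.143% higher of all symbols), with a median log2 change of -2.22. This comparison shares its Flag libraries with that of Flag and IgG. Many histone genes have near-identical coding sequences, so the counts of single copies are uncertain. Gene levels in the RNA-seq tables were low for some of them: Hist1h3d had 3.01 and 6.05 FPKM in mESC.

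The two-cell-like state is a transient state of a few stem cells that resembles the cleavage embryo. Of its 13 tested genes 6 were called higher with Flag and 0 lower, beside 1.16% of all symbols in each direction. Zscan4 copies made up 5 of the 6. All 13 lay above 0, and the median log2 fold change was 2.81, or 2.76 with the 2 genes without an IgG count set at their bound. These 2 genes passed the count filter through Flag libraries, with or without HU, and could only lie above 0. The list had 17 genes with a row of counts, of which the 13 were tested. Zscan4f, a zinc finger gene that marks this state (chromosome 7, 11397915 to 11402318), stood at 1.59 and 2.54 CPM with IgG, 29.2 and 37.6 CPM with Flag and 10.8 and 30.7 CPM with Flag after HU. Its log2 fold change was 3.99 ± 0.51 (adjusted p = 0.000163, edgeR). The copies Zscan4d, Zscan4c and Zscan4b had log2 fold changes of 3.22 ± 0.60, 2.76 ± 0.43 and 2.63 ± 0.53 (adjusted p = 0.00642, 0.00142 and 0.0112, edgeR). Reads can be shared among these near-identical copies on chromosome 7, so they are not separate observations. Without IgG replicate 1 or 2 the list kept 1 call in each case. In the total RNA of mESC, Zscan4f had 18.998 and 6.88 FPKM.

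Among transcripts that encode RNA-binding proteins of splicing, 4 of 28 hnRNP, 3 of 21 SR and 1 of 36 core spliceosome genes were called higher with Flag. The share over all symbols tested was 1.16%, and the core spliceosome list held a single call. All 28 hnRNP genes tested, which encode nuclear proteins that coat pre-mRNA, had a log2 fold change above 0 and a median of 0.64, and 0 were called lower. With library size alone that median was -0.27, which is 0.61 above the median of all genes. Ewsr1, which encodes an RNA-binding protein, stood at 12.1 and 11.2 CPM with IgG, 47.1 and 44.9 CPM with Flag and 40.4 and 42.7 CPM with Flag after HU (log2 fold change 1.98 ± 0.32, adjusted p = 0.00166, edgeR). Hnrnpa2b1, a splicing and RNA transport factor, stood at 38.8 and 33.7 CPM with IgG, 111 and 98.2 CPM with Flag and 104 and 72.9 CPM with Flag after HU (log2 fold change 1.53 ± 0.29, adjusted p = 0.00642, edgeR). Hnrnph1, a splicing regulator, had a log2 fold change of 1.55 ± 0.35 (adjusted p = 0.0234, edgeR). Without IgG replicate 1, or without IgG replicate 2, 0 hnRNP genes were called (edgeR), while DESeq2 on all libraries called 5 and an unadjusted p under 0.05 was reached by 14 on all libraries.

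Of 21 SR protein and kinase genes, which encode splicing activators and their regulators, 3 were called higher and 0 lower, with a median of 0.64 that turned to -0.26 with library size alone. Srsf5 stood at 24.5 and 21.3 CPM with IgG, 108 and 109 CPM with Flag and 84.4 and 111 CPM with Flag after HU (log2 fold change 2.24 ± 0.29, adjusted p = 0.000163, edgeR). The other two were Srsf7 (1.45 ± 0.35, adjusted p = 0.0311) and Tra2a (1.495 ± 0.37, adjusted p = 0.0363, edgeR), and 1 of the 3 calls remained without IgG replicate 1, IgG replicate 2 or Flag replicate 1. Core spliceosome genes lay closer to the bulk: 1 of 36, Snrnp70, was called higher, and the median was 0.16. Snrnp70 encodes the U1-70K protein and had a log2 fold change of 1.21 ± 0.30 (adjusted p = 0.0386, edgeR).

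Among 13 long noncoding RNAs of the nucleus or of imprinted loci, Malat1 and Firre were called higher and Rian lower. Over all symbols tested 1.16% were called in each direction. Malat1, an abundant RNA of nuclear speckles, stood at 233 and 192 CPM with IgG, 311 and 779 CPM with Flag and 334 and 619 CPM with Flag after HU (log2 fold change 1.36 ± 0.34, adjusted p = 0.0376, edgeR). The second Flag library stood well above the first, and both stood above the IgG libraries. Firre, a nuclear RNA from the X chromosome, stood at 2.79 and 2.88 CPM with IgG and 7.29 and 16.5 CPM with Flag (log2 fold change 2.06 ± 0.52, adjusted p = 0.0423, edgeR). Rian, from the imprinted Dlk1-Dio3 region, stood at 21.9 and 14.1 CPM with IgG and 0.389 and 3.00 CPM with Flag (log2 fold change -3.44 ± 0.80, adjusted p = 0.0259, edgeR). None of the 40 small nucleolar and Cajal body RNAs was called by edgeR or DESeq2, 5 reached an unadjusted p under 0.05 (edgeR), and their median was 0.02. No source used here says that strand was kept, so antisense and overlapping genes cannot be told apart.

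**Figure D3:**
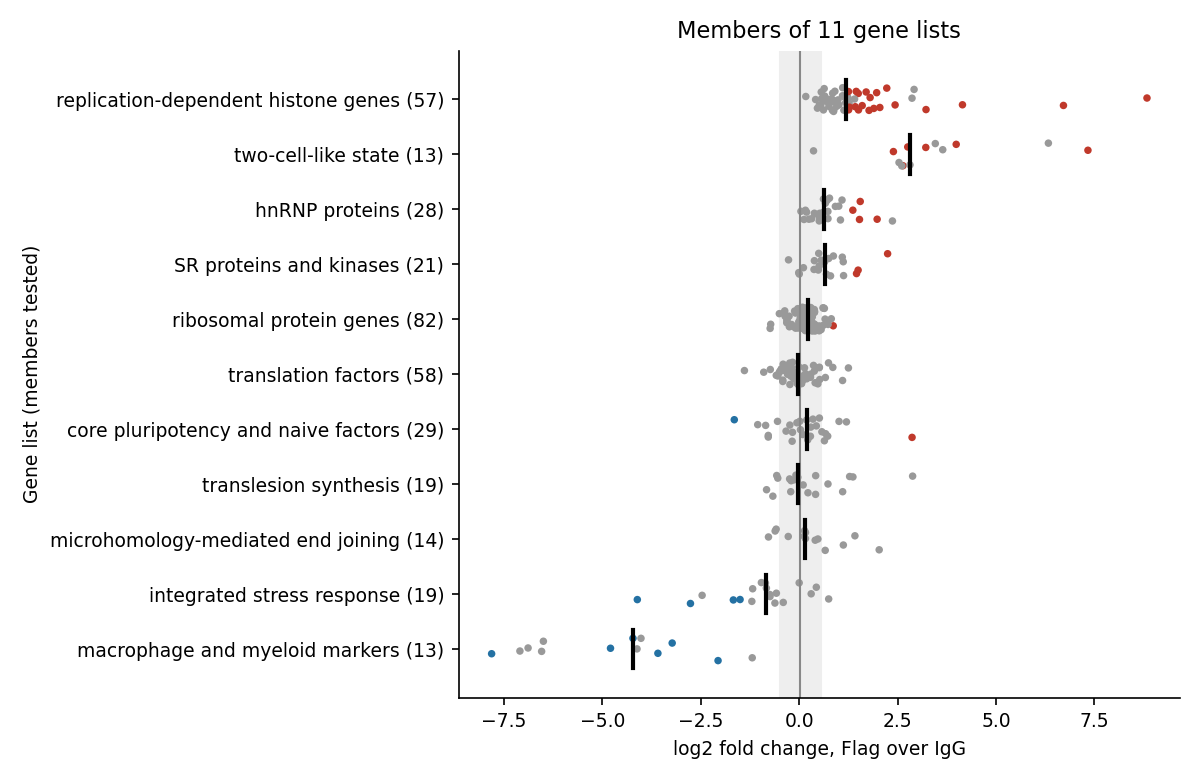
Log2 fold change of Flag over IgG for each tested member of 11 gene lists (red, called higher; blue, called lower; grey, not called), with the list median as a black bar and the quartiles of all 10473 symbols as a grey band. All 57 histone genes and all 13 two-cell genes lie above 0, and all 13 macrophage markers lie below. Without an IgG count were 1 histone gene and 2 two-cell genes, and without a Flag count 5 macrophage markers. These were tested through other libraries and could lie on 1 side only.

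On the other side stood mRNAs found with IgG and hardly with Flag. Rbm47, an RNA-binding protein gene of epithelial and embryonic cells, stood at 33.1 and 42.3 CPM with IgG, 3.11 and 2.4996 CPM with Flag and 2.39 and 1.97 CPM with Flag after HU. Its log2 fold change was -3.73 ± 0.41 (adjusted p = 4.59e-05, edgeR). Zc3hav1, which encodes the antiviral RNA-binding protein ZAP, stood at 130 and 76.2 CPM with IgG, 15.3 and 15.2 CPM with Flag and 22.9 and 36.1 CPM with Flag after HU (log2 fold change -2.76 ± 0.35, adjusted p = 0.00014, edgeR). Iqgap1, a scaffold of the actin cortex, stood at 44.8 and 44.2 CPM with IgG, 8.85 and 8.25 CPM with Flag and 8.10 and 14.3 CPM with Flag after HU (log2 fold change -2.38 ± 0.36, adjusted p = 0.0012, edgeR). All 4 Flag libraries lay below both IgG libraries for these 3 genes. Reep6, a membrane-shaping gene, Sfmbt2, an imprinted Polycomb-related gene, and Wwc1, a Hippo pathway gene, had log2 fold changes of -2.72 ± 0.38, -2.78 ± 0.43 and -2.93 ± 0.43 (adjusted p = 0.000465, 0.0012 and 0.000773, edgeR). Grhl2, an epithelial transcription factor, had 54 and 102 counts with IgG and 1 and 1 with Flag, and no fold is given at so few counts. Rpa1, a subunit of the single-strand binding protein RPA, was the only one called, and lower, among 27 replication genes (77.1 and 113 CPM with IgG, 38.0 and 44.7 CPM with Flag; log2 fold change -1.20 ± 0.30, adjusted p = 0.0384, edgeR).

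Of 19 genes of the integrated stress response, which cells switch on through ATF4 when amino acids run short or proteins misfold, 4 were called lower with Flag and 0 higher. The other 15 were not called, 3 of the 19 lay above 0, and the median was -0.84. Over all symbols tested 1.16% were called lower, and the median was 0.02. Nupr1, a stress-induced chromatin protein, stood at 17.1 and 24.0 CPM with IgG and 2.33 and 3.75 CPM with Flag (log2 fold change -2.76 ± 0.48, adjusted p = 0.00296, edgeR). Chac1, a glutathione-degrading enzyme, stood at 36.0 and 31.7 CPM with IgG and 8.85 and 12.4 CPM with Flag (log2 fold change -1.68 ± 0.36, adjusted p = 0.0167, edgeR). Sesn2, a brake on mTORC1 that is also a p53 target, stood at 46.0 and 38.1 CPM with IgG, 14.002 and 15.6 CPM with Flag and 43.4 and 28.1 CPM with Flag after HU (log2 fold change -1.504 ± 0.33, adjusted p = 0.0191, edgeR). The fourth was Slc7a11, a cystine transporter, with 76 and 52 counts with IgG and 13 and 0 with Flag. Atf4 itself, also chosen after its values were seen, had a log2 fold change of 0.43 ± 0.28 and was not called (adjusted p = 0.509, edgeR). The list had 1 call without IgG replicate 1 and 0 without IgG replicate 2.

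Markers of macrophages and other myeloid cells had a higher summed level in both IgG libraries. Among 19 such markers 13 were tested and 6 were called lower with Flag, beside 1.16% of all symbols. All 13 lay lower in both Flag libraries than in both IgG libraries, beside 22.9% of all symbols. Of the 13, 5 had no Flag count, so they passed the count filter through other libraries and could only lie lower. Over all 19, tested or not, 14 lay lower in both Flag libraries and 2 had no IgG count. The 19 markers summed to 189 and 93.4 CPM with IgG, 11.7 and 12.6 CPM with Flag and 21.0 and 65.2 CPM with Flag after HU. Lyz2, the lysozyme of myeloid cells, stood at 99.2 and 40.1 CPM with IgG, 3.31 and 4.12 CPM with Flag and 9.70 and 32.7 CPM with Flag after HU (log2 fold change -4.23 ± 0.53, adjusted p = 0.00014, edgeR). Itgam, the integrin CD11b, chosen here after its values were seen, had 42 counts over the IgG libraries and 0 over the Flag libraries, at least 23.4-fold lower. The median over the 13 was -4.23, or -3.62 with the 5 genes without a Flag count set at their bound. Adgre1 (F4/80) and Aif1 had no count in the 4 libraries, and 9 of the 19 had none in both Flag libraries. In the total RNA of mESC 16 of the 19 were under 1 FPKM in both libraries, and Lyz2 was listed at 0 and 0.0332 FPKM. Laptm5, called lower with Flag, had 34.5 and 26.5 FPKM in mESC. In the MEF libraries Lyz2 had 28.1 and 32.6 FPKM, Ctss 3.06 and 2.95, Laptm5 1.14 and 1.09 and Cd74 0.259 and 0.319. The part of myeloid RNA in the lower recovery of other genes was not tested. With 1 library left out, the list had between 1 call (without IgG replicate 1) and 3. Fewer cells of a type, less RNA per cell and different recovery by IgG and Flag cannot be told apart in these bulk immunoprecipitates. None of them was tested.

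Fibroblast markers did not follow this pattern: 8 of 28 were tested, 1 was called lower (Thbs1), and the 28 summed to 97.2 and 58.9 CPM with IgG and 56.8 and 80.1 CPM with Flag. Of 8 primitive endoderm genes 1 was called higher, Col4a1, a basement membrane collagen (log2 fold change 2.76 ± 0.53, adjusted p = 0.00781, edgeR). Of 4 trophectoderm genes Tfap2c was called higher (1.98 ± 0.48, adjusted p = 0.035) and Eomes lower (-3.74 ± 0.73, adjusted p = 0.00831, edgeR). Of 4 neural genes Sox1 was called higher (2.85 ± 0.49, adjusted p = 0.00296, edgeR), at 1.19 and 3.39 CPM with IgG and 16.9 and 17.0 CPM with Flag. Beside these short lists, 1.16% of all symbols were called higher and 1.16% lower.

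In DNA damage tolerance and repair, none of the 19 translesion synthesis genes tested, 14 microhomology-mediated end joining genes, 28 homologous recombination and Fanconi genes or 11 non-homologous end joining genes was called by edgeR, with medians of -0.04, 0.16, 0.07 and 0.27. An unadjusted p under 0.05 was reached by 2, 2, 4 and 1 of them (edgeR), and DESeq2 called 0, 0, 0 and 1 (lower). Of all 10473 symbols, 1607 reached an unadjusted p under 0.05 and 2.32% were called (edgeR). Lists this short can therefore hold no call without differing from the bulk. Rev1, a scaffold polymerase of translesion synthesis, had 13 and 41 counts with IgG, 66 and 77 with Flag and 115 and 90 with Flag after HU. Scaled, that is 2.59 and 6.94 CPM with IgG, 6.42 and 9.62 CPM with Flag and 15.3 and 14.8 CPM with Flag after HU. The IgG and Flag libraries overlap, and the log2 fold change was 0.73 ± 0.49 (adjusted p = 0.519, edgeR), or -0.18 with library size alone. Polq, the polymerase of microhomology-mediated end joining, had 14 and 17 counts with IgG and 29 and 27 with Flag (2.79, 2.88, 2.82 and 3.37 CPM). Its log2 fold change was 0.12 ± 0.64 (adjusted p = 0.961, edgeR), or -0.77 with library size alone, and small changes of either sign were not detectable at this depth.

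In the large housekeeping groups few genes were called, as over all symbols tested, where 1.16% were called higher and 1.16% lower. Of 82 ribosomal protein genes 1 was called higher, Rpl13 (206 and 198 CPM with IgG, 355 and 380 CPM with Flag; log2 fold change 0.86 ± 0.22, adjusted p = 0.0409, edgeR), and the median was 0.21. Both the median and Rpl13 fell below 0 with library size alone (-0.68 and -0.03). None of 58 translation factor genes and none of 36 proteasome genes was called by edgeR or DESeq2, and an unadjusted p under 0.05 was reached by 4 and 1 (edgeR). Of 73 nuclear genes of oxidative phosphorylation 1 was called lower, Sdhd, a subunit of succinate dehydrogenase (log2 fold change -1.29 ± 0.34, adjusted p = 0.0472, edgeR).

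**Figure D4:**
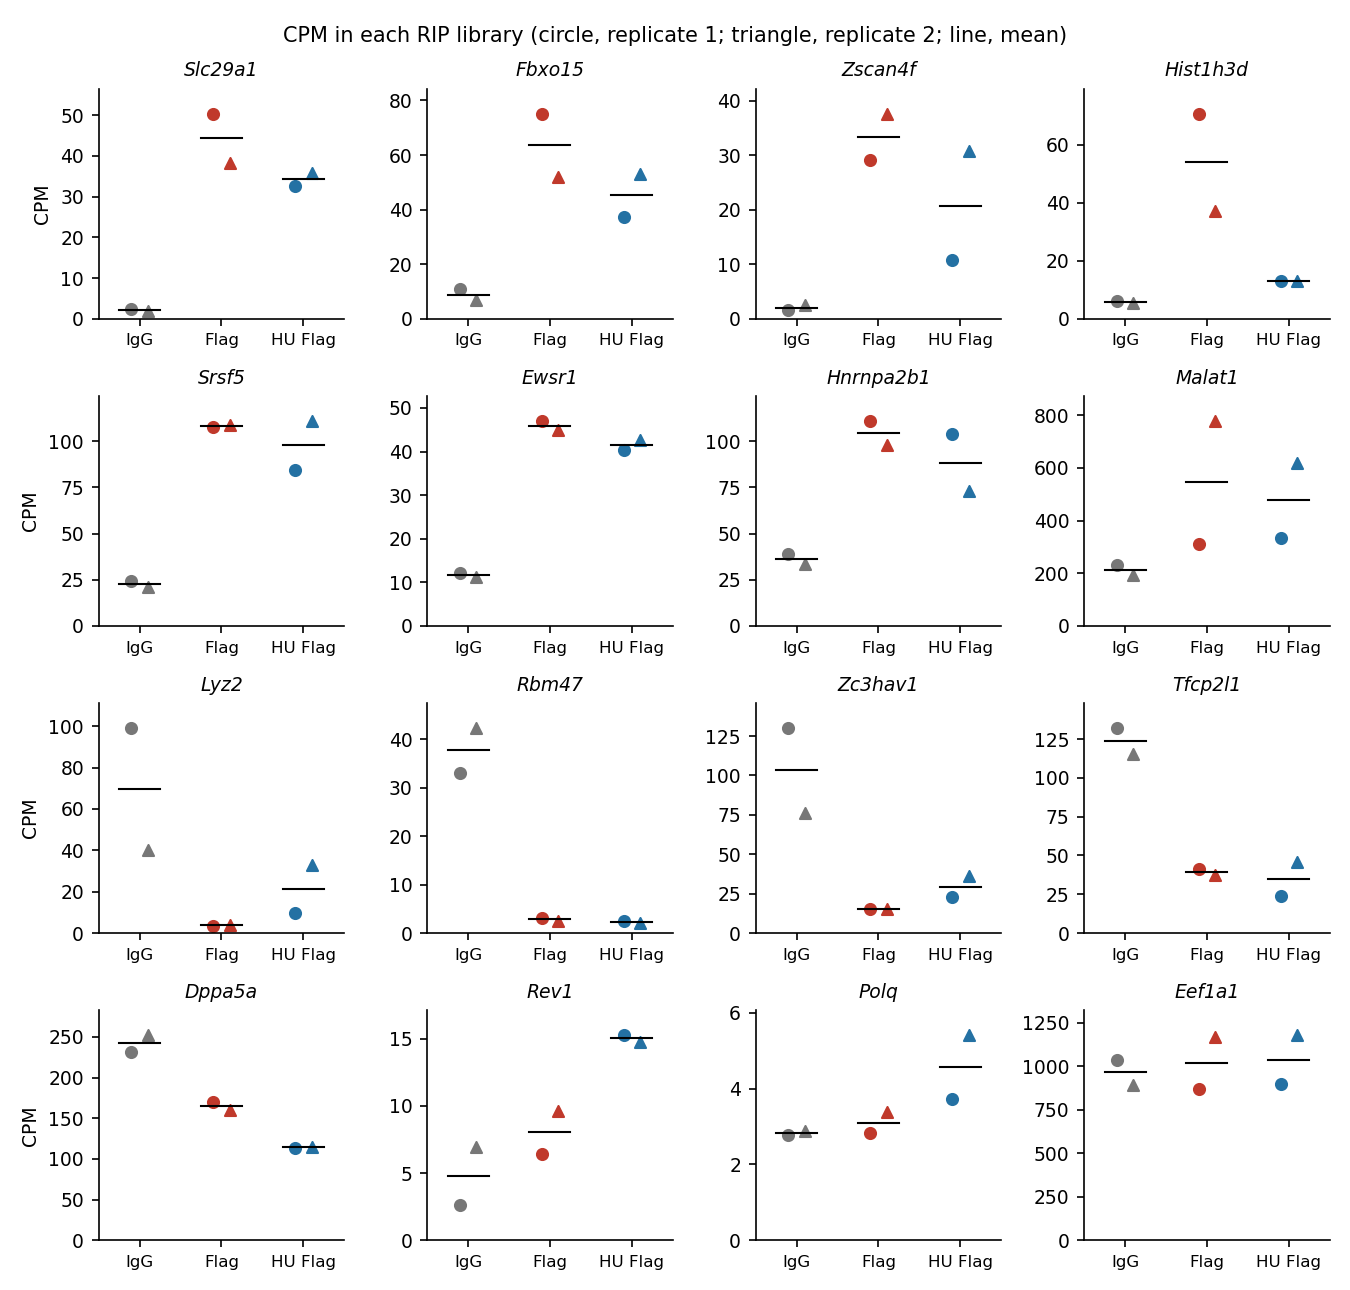
CPM of 16 genes in each RIP library (grey, IgG; red, Flag; blue, Flag after HU; circle, replicate 1; triangle, replicate 2; line, mean). The top 2 rows hold genes recovered more with Flag, the third row genes recovered less, and the bottom row Dppa5a, Rev1, Polq and Eef1a1, which were not called.

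Recovery with Flag over IgG was weakly related to the level of a transcript in total RNA. Genes called higher had a median of 12.9 FPKM in mESC, genes called lower 8.57 FPKM and all tested symbols 12.9 FPKM. Under 1 FPKM were 8 (6.61%) of the genes called higher, 21 (17.2%) of those called lower and 5.67% of all. Across 10448 genes the log2 fold change of Flag over IgG correlated with log2 mESC FPKM at a Pearson r of 0.07, a description across genes that share the same libraries. Genes called higher were shorter on the genome, with a median span of 9951 bp against 21538 bp for those called lower and 23471 bp for all. Across 10448 genes, however, the log2 fold change correlated only weakly with log2 gene span (Pearson r of -0.06). Of 138 genes that span less than 1000 bp, 20 (14.5%) were called higher and 1 lower, beside 1.16% of all symbols in each direction. From 1000 to 3000 bp 1.04% were called higher, and from 3000 to 10000 bp 1.78%. Of 1214 genes that span more than 100000 bp, 3 were called higher and 21 lower. The shortest genes include the histone genes, and a relation to span without them was not tested.

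The knockdown libraries give a view of the same genes that shares no library with the RIP. Dppa5a itself stood at 5126 and 5417 FPKM in the knockdown control and at 101 and 358 FPKM in the knockdown (log2 change -4.78 ± 0.63, SE, n = 2 and 2, adjusted p = 0.00878, limma). Of the genes recovered more with Flag, 109 were also tested in the knockdown: 36 (33.0%) fell and 17 (15.6%) rose at an adjusted p under 0.05 (limma). Of the genes recovered less, 105 were tested: 8 (7.62%) fell and 49 (46.7%) rose. Over all 10126 genes tested in both experiments 18.4% fell and 15.0% rose. The median log2 change was -0.32 for genes recovered more, 0.45 for genes recovered less and -0.05 for all. With FPKM rescaled to a common sum, 20 of 110 genes recovered more fell (18.2%, beside 8.65% of all), and 38 of 104 genes recovered less rose (36.5%, beside 11.2%). Without histone genes, 31 of 95 genes recovered more fell (32.6%, beside 18.3%).

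Leaving out 1 knockdown or control library moved the number that fell among genes recovered more between 23 (without control replicate 2) and 63 (without knockdown replicate 2), and over all genes the share that fell moved between 8.63% and 42.1% in the same fits. The number that rose among genes recovered less ranged from 23 (without control replicate 2) to 73 (without knockdown replicate 2), where the share over all genes ranged from 5.23% to 34.5%.  Genes with a log2 fold change of Flag over IgG of 2 or more, called or not, numbered 354, of which 41.5% fell and 8.76% rose. At the other end the 257 genes below -2 were split, with 26.5% that fell and 21.4% that rose and a median of -0.01. Across the 10126 genes, the RIP and knockdown changes correlated at a Pearson r of -0.14, again a description.

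**Figure D5:**
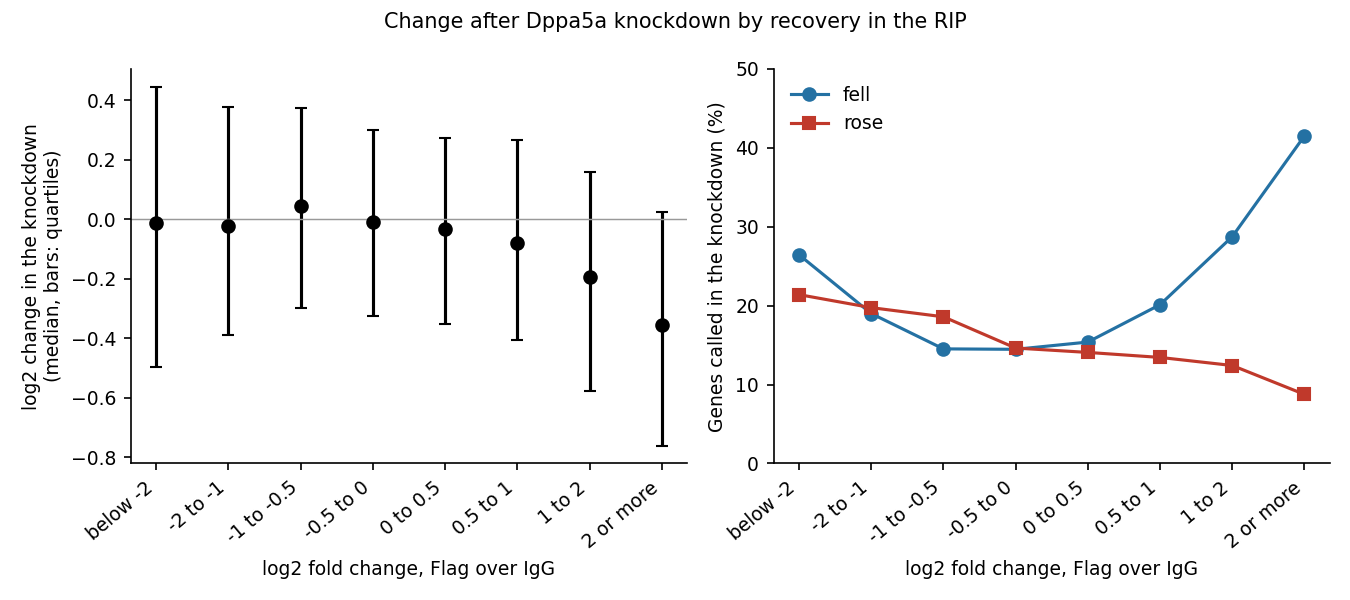
Change after Dppa5a knockdown for genes grouped by their log2 fold change of Flag over IgG. Left, the median log2 change with quartiles as bars; right, the percent of genes in each group that fell (blue) or rose (red), reaching 41.5% and 8.76% in the group at 2 or more.

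Among the genes named above, Fbxo15 (log2 change -2.53, adjusted p = 0.00601) and Slc2a3 (-1.32, adjusted p = 0.0142) fell in the knockdown (limma). Of the two-cell-like list 5 of 14 genes tested rose and 5 fell, with a median of -0.52. Among its Zscan4 copies Zscan4f rose by 0.74 (adjusted p = 0.0307), Zscan4c by 0.76 (adjusted p = 0.0247) and Zscan4b by 0.91 (adjusted p = 0.0139, limma), while Zscan4d had a change of 0.45 and was not called (adjusted p = 0.0503, limma). Slc29a1, Srsf5 and Ewsr1 were not called in the knockdown (-0.29, -0.11 and -0.17). Of the 44 histone genes tested there 20 fell and 0 rose, and of 28 hnRNP genes 0 fell and 15 rose, beside 23.8% that fell and 13.6% that rose of all 12345 genes tested in the knockdown. Among genes recovered less, Zc3hav1 rose by 0.89 (adjusted p = 0.0403), Reep6 by 0.63 (adjusted p = 0.0161) and Sesn2 by 0.83 (adjusted p = 0.0105, limma). Rbm47 (-0.01), Iqgap1 (0.44), Sfmbt2 (0.53), Tfcp2l1 (0.57) and Nupr1 (-1.11) were not called in the knockdown.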

How the data were processed

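Flag and IgG immunoprecipitates of untreated cells (2 libraries each) were compared, with 2 HU Flag libraries in the same fit. RNA was taken up in Trizol and libraries made with a NEBNext Ultra kit, per the labels' protocols. For the RIP the authors deposited raw counts per gene symbol, 1 table per library. For total RNA the authors deposited FPKM per locus, per the file headers. The mm10 build, HTSeq 0.6.1, Cuffdiff 2.1.1, Cufflinks 2.1.1, TopHat2 2.0.8 and CASAVA 2.19 are listed, without their roles, in the submitters' processing notes.

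Of 24421 symbols, 27 that a spreadsheet had turned into dates (0.0206% to 0.0489% of counts) were left out. Counts were tested with edgeR 4.0.16 in R 4.3.3: filterByExpr, TMM, glmQLFit and glmQLFTest, leaving 10473 symbols. FPKM were summed over the loci of a symbol (24883 loci, 24346 symbols; 1 symbol with a failed estimate was left out) and tested with limma 3.58.1 on log2(FPKM + 1) at a mean of at least 1 FPKM, a scale that understates the change of low genes. A call is a Benjamini-Hochberg adjusted p under 0.05 over all genes tested. Intervals are exact Clopper-Pearson at 95%. On simulated counts for this comparison (10032 genes) edgeR recovered 42% of 4-fold and 75% of 8-fold changes, with 1.68% of calls false. The simulated spread followed abundance alone, and changes were placed only in genes with enough expected counts in the smallest library. The 1.68% therefore need not hold for the calls in the data. On simulated knockdown values (11976 genes) limma recovered 47% of 2-fold and 96% of 4-fold changes, with 8.33% of calls false. Coordinates and spans are from RefSeq on GRCm38.p6, to which 10449 tested symbols matched, 493 by a synonym. Alternatives covered scaling, filters, DESeq2 1.42.0, a 2-fold threshold, the libraries in the fit, a replicate block and leaving out each library. Same-numbered libraries are not said to be paired. Figures used matplotlib 3.10.9 in Python 3.11.15.

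The members and gene lists were chosen with earlier results of these data known. Named genes are Dppa5a, Rev1 and Polq, the 10 most abundant symbols, in each direction the 12 largest called changes at 20 CPM or more and the 6 smallest p, and the leading called members of each list. The values of 1 called gene are not reported here.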

Additional observations from a re-analysis of the deposited data

Results flagged for a closer look

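The difference between HU Flag and Flag libraries, on the log2 scale, passed the test (edgeR quasi-likelihood, Benjamini-Hochberg adjusted p under 0.05) for 21 of the 243 genes called in the comparison of Flag with IgG. Both groups had 2 libraries, and the Flag libraries also enter that comparison. Genes picked for a high or low level in those Flag libraries are favoured in advance to move back toward IgG. The direction of the changes below is therefore not independent of how the genes were picked. Of all symbols tested, 0.468% were called lower and 0.143% higher after HU.

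Of these genes 18 were replication-dependent histone genes, each lower after HU. The H2A and H2B genes were Hist1h2aa (-5.60), Hist1h2ba (-3.90), Hist3h2a (-3.44), Hist1h2ae (-2.72) and Hist1h2bg (-2.25). Hist1h2aa had 111 and 41 counts with Flag and 1 and 1 after HU, so its fitted change is no bound. The H3 genes were Hist1h3f (-2.30), Hist1h3b (-2.05), Hist1h3d (-2.05), Hist1h3e (-1.86) and Hist1h3c (-1.70). The H4 genes were Hist1h4b (-2.16), Hist1h4j (-2.14), Hist1h4d (-1.87), Hist1h4f (-1.85), Hist1h4c (-1.84), Hist1h4k (-1.82) and Hist1h4h (-1.57). The linker histone gene was Hist1h1d (-1.91).

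The other 3 were higher after HU. Rmrp differed by 0.82, Lyz2 by 2.504 and Ccl9, a chemokine of myeloid cells, by 3.53. Lyz2 stood at 9.70 and 32.7 CPM after HU, so its level differed between the HU Flag libraries as well.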

How the results depend on the processing

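For Flag against IgG the 243 calls became 2278 with library size alone, 508 with the replicate block, 456 with no filter on low counts and 58 against a 2-fold threshold. Leaving out 1 library gave 30 to 248 calls. DESeq2 gave 306. With library size alone 10 of 83 named genes changed sign, all to below 0: 3 that were called in either fit, Eef1a1 (-0.81), Rps2 (-0.87) and Rpl13 (-0.032), and 7 called in neither, Rev1 (-0.18) and Polq (-0.77) among them. That setting moves the centre of all genes; the cause of the other differences was not tested. The replicate block kept all 121 higher and 122 lower calls. Deviations of same-numbered libraries correlated at -0.016 for IgG and Flag, -0.034 for IgG and HU Flag and 0.383 for Flag and HU Flag; with 2 pairs and no label this does not establish a pairing. HU Flag against Flag gave 64 calls, and 86 with the replicate block. In 20 called genes the call was made in each alternative that tested them, 12 of them higher. Without Rn45s in the denominator the Flag minus IgG difference in share was 21.6 percentage points for Lars2 (main 4.52) and -0.0672 for Rpph1 (main -0.203). In the knockdown the 4618 calls became 2916 with FPKM rescaled to a common sum, 5296 with the replicate block and 2415 to 9436 with 1 library left out. Few counts outside the abundant RNAs in the IgG libraries (702016 and 841305) limit what could be called.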

Other observations

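Some gene groups among those recovered less with Flag were put together after the values were seen, so they are described with no test of the group. Of 22 epithelial genes tested 8 were called lower and 0 higher (edgeR), and 21 had a log2 fold change below 0, with a median of -1.84. Their summed level was 259 and 274 CPM with IgG, 113 and 96.2 CPM with Flag and 94.6 and 89.7 CPM with Flag after HU. Cdh1, the adhesion protein E-cadherin, stood at 37.4 and 27.4 CPM with IgG and 11.1 and 10.2 CPM with Flag. Esrp1, an epithelial splicing factor, and Cldn4, a tight junction protein, were also called lower.

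Of all symbols tested 1.16% were called lower. Of 16 genes of FGF and ERK feedback 2 were called lower, Spry4 and Etv4, 11 lay below 0, and the median was -0.51. Dusp4 (2.22) and Dusp5 (0.88) lay above 0 and were not called. Spry4, an inhibitor of the pathway, stood at 170 and 190 CPM with IgG and 76.5 and 62.9 CPM with Flag. Of 11 genes of BMP and TGF-beta signalling 4 were called lower: Id1, Smad7, Bmp4 and Inhbb. Of the 11, 7 lay below 0, and the median was -0.25. Lefty1 (2.63), Smad6 (2.26), Tgif1 (0.87) and Nodal (0.08) lay above 0 and were not called. Smad7, an inhibitory SMAD, stood at 105 and 121 CPM with IgG and 32.6 and 30.1 CPM with Flag. Of 6 chemokine genes tested 4 were called lower, Ccl6, Ccl9, Cxcl2 and Cxcl3, and the chemokines summed to 67.9 and 33.5 CPM with IgG, 2.63 and 5.50 CPM with Flag and 7.04 and 31.7 CPM with Flag after HU.

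Of the genes called higher, 3 known from germ cells were picked after their values were seen, from no list, and stand for no group. Stra8, a gene of meiotic entry, had 1 and 2 counts with IgG and 220 and 18 counts with Flag. Dazl, a germ cell RNA-binding protein, stood at 0.199 and 2.03 CPM with IgG and 22.1 and 5.999 CPM with Flag, and Dmrt1, a germ cell transcription factor, at 1.19 and 1.02 CPM with IgG and 14.7 and 5.25 CPM with Flag. In these 3 genes the first Flag library was well above the second.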
